A study of Homo sapiens with 24 samples.

Results

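The human mitochondrial chromosome carries 37 genes, and all 37 had a row among the 60617 gene identifiers of the count table. They were selected by name, as every Ensembl identifier whose gene symbol begins with MT-. The set comprises 13 protein-coding genes, 2 ribosomal RNA genes and 22 transfer RNA genes. Of these, 28 belong to the heavy-strand transcript and 9 to the light-strand transcript, namely MT-ND6 and 8 tRNAs.

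RNA came from THP1 cells, a human monocytic leukaemia line, turned into adherent macrophages by 10 ng/ml of the phorbol ester PMA for 48 hours and a further 48 hours without it. Genotype was crossed with vector in 4 groups. CD33KO_shPTPN6 (5 libraries) was CD33 knockout cells with a pLKO.1 hairpin against PTPN6, CD33KO_shCTRL (6 libraries) the same genotype with empty pLKO.1, WT_shPTPN6 (6 libraries) wild-type cells with the hairpin, and WT_shCTRL (6 libraries) wild-type cells with empty pLKO.1. Cells of all 4 groups had met lentivirus made in HEK-293FT cells for 24 hours, rested for 48 hours and been selected with 1 µg/ml puromycin. Replicate 2 of CD33KO_shPTPN6 was not analysed here. CD33 is an inhibitory receptor of myeloid cells and PTPN6 encodes SHP-1, a phosphatase recruited by such receptors. Because the control vector held no hairpin, loss of PTPN6 and the presence of a hairpin cannot be told apart. Loss of CD33 and any other difference between the knockout and wild-type cells cannot be told apart either. The labels state neither the number of knockout clones nor whether the libraries of a group were separate cultures, so p-values here cover library-to-library spread, which may be technical.

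Mitochondrial DNA is transcribed from both strands into long precursors that span many genes. In the usual view, tRNAs punctuate these precursors and their excision releases the mRNAs and rRNAs between them. Most mitochondrial mRNAs then receive an A tail, which for several of them completes the stop codon, whereas the MT-ND6 mRNA carries little or no tail and mature tRNAs end in CCA. The mRNAs encode core subunits of complexes I, III and IV and of ATP synthase, whose other subunits are encoded in the nucleus, so that respiration in macrophages, as in other cells, depends on both genomes.

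The kit reads the ends of RNAs that an oligo(dT) primer can bind, so the end of a transcript decides how it is counted. The last 15 bases of 8 mRNAs, from GENCODE release 29 transcripts on GRCh38 and with the position of the whole gene, show which ones need a tail to make a stop codon. Capitals mark the stop codon, or the part of it that the gene encodes. By annotated gene length, 6 of the 13 coding genes encode an incomplete stop codon and 7 a complete one. MT-ATP6 is counted as complete, but the last A of its TAA, at chrM:9207, is also the first base of MT-CO3. Which mRNA keeps that base was not tested, so MT-ATP6 may need a tail as well. The 6 incomplete ones are given first, then MT-CO1 and MT-ND6 as complete ones.
MT-ND1 (ENSG00000198888, chrM:3307-4262, + strand): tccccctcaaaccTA
MT-ND2 (ENSG00000198763, chrM:4470-5511, + strand): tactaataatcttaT
MT-CO3 (ENSG00000198938, chrM:9207-9990, + strand): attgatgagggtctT
MT-ND3 (ENSG00000198840, chrM:10059-10404, + strand): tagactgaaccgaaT
MT-ND4 (ENSG00000198886, chrM:10760-12137, + strand): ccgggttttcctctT
MT-CYB (ENSG00000198727, chrM:14747-15887, + strand): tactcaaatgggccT
MT-CO1 (ENSG00000198804, chrM:5904-7445, + strand): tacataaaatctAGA
MT-ND6 (ENSG00000198695, chrM:14149-14673, - strand): gctcgggggaatAGG
mRNAs that carry a pair of genes are a further feature of this genome. MT-ATP8 and MT-ATP6 share 46 bases of one RNA in different reading frames, and the stretch is shown because reads ending in it cannot be assigned to one of the genes by position alone. Capitals mark the start codon of MT-ATP6 and the stop codon of MT-ATP8. MT-ND4L and MT-ND4 share 7 bases in the same way.
MT-ATP8 and MT-ATP6 overlap (chrM:8527-8572, + strand): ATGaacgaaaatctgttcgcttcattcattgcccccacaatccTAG
MT-TF, MT-TV and MT-TL1 took 91.5% of all tRNA counts, and all are encoded beside the rRNA genes. Their sequences are given because a gene without an encoded A tail can be counted through an A-rich stretch or through a tail added to a precursor, and the count table does not show which. Capitals mark the longest run of A in each, and the first of the equally long runs in MT-TL1.
MT-TF (ENSG00000210049, chrM:577-647, + strand): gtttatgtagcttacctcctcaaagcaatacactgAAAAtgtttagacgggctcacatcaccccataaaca
MT-TV (ENSG00000210077, chrM:1602-1670, + strand): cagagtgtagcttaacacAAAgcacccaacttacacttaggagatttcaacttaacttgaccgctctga
MT-TL1 (ENSG00000209082, chrM:3230-3304, + strand): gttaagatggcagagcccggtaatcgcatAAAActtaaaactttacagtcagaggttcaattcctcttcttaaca

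Library totals ran from 2024032 to 6269304 counts, and the knockout libraries were the shallower ones apart from CD33KO_shCTRL replicate 5. PTPN6 averaged 7.41 ± 2.75 CPM (counts per 1000000, after TMM scaling) in CD33KO_shPTPN6, 37.7 ± 3.88 in CD33KO_shCTRL, 10.6 ± 1.45 in WT_shPTPN6 and 44.6 ± 6.24 in WT_shCTRL (SD), and the hairpin libraries did not overlap with the others. CD33 averaged 23.5 ± 4.86 and 20.2 ± 2.45 CPM in the knockout groups with hairpin and with empty vector, against 88.8 ± 5.33 and 45.5 ± 3.24 CPM in wild type. Where the edit lies in CD33 is not stated, so these 3′ counts do not check it. Of 12 macrophage markers 11 could be tested, MRC1 being near 0 in every group, and their summed level ran from 2802 to 3052 CPM in CD33KO_shPTPN6, 1346 to 1565 in CD33KO_shCTRL, 3645 to 3808 in WT_shPTPN6 and 1787 to 2117 in WT_shCTRL. Single members differed from that sum. LYZ averaged 5.66 and 3.49 CPM in the knockout groups with hairpin and with empty vector, against 227 and 26.1 in wild type. In that order, CD163 averaged 2.42 and 2.41 CPM against 89.8 and 22.97, and FCGR1A 0.464 and 0.473 against 14.8 and 10.6. CD14 and ITGAX were higher in the knockout with either vector, ITGAX with 214 and 151 CPM against 115 and 63.5. The epithelial and HEK-293 list, mostly CDH1, CDH2 and INA, summed to 90.8 to 113 CPM in CD33KO_shPTPN6, 105 to 139.9 in CD33KO_shCTRL, 64.1 to 104 in WT_shPTPN6 and 46.6 to 65.4 in WT_shCTRL, and the erythroid and platelet list to 9.51 to 57.2 CPM over all libraries. EPCAM stayed at or below 0.532 CPM and CD3E at or below 0.450 CPM in every library. The sum of the fibroblast and endothelial list, mostly PECAM1, ran from 731 to 785 CPM in CD33KO_shPTPN6, 437 to 479.7 in CD33KO_shCTRL, 385 to 454 in WT_shPTPN6 and 185 to 214 in WT_shCTRL. That of the lymphoid list, mostly GNLY and TRAC, ran from 349 to 403 CPM in CD33KO_shPTPN6, 615 to 704 in CD33KO_shCTRL, 169 to 209 in WT_shPTPN6 and 599.7 to 734 in WT_shCTRL. The part of any marker list in the results below was not tested.

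The 37 genes together received 5756467 counts over the 23 libraries. Coding genes took 60.0% of these and MT-RNR2 alone 34.7%. Genes of the light-strand transcript took 0.112%. Filtering on low counts left 30 of the 37 genes to be tested, which are all 13 coding genes, both rRNAs and 15 tRNAs. The 7 tRNA genes left out had few counts over all libraries, with 168 for MT-TR, 64 for MT-TE, 63 for MT-TS1, 61 for MT-TA, 21 for MT-TW, 1 for MT-TN and 0 for MT-TK. A total of 0 allows up to 3 counts over the 23 libraries, which is a limit of counting only.

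Coding transcripts, rRNAs and tRNAs of the mitochondrial genome did not move together across the groups. Coding transcripts made up 3.48, 3.63, 3.40, 3.52 and 3.54% of the counts in the CD33KO_shPTPN6 libraries and 3.41 to 3.98% (median 3.62) in CD33KO_shCTRL. In wild type they made up 5.03 to 5.87% (median 5.43) in WT_shPTPN6 and 3.51 to 3.91% (median 3.71) in WT_shCTRL. Every WT_shPTPN6 library thus lay above all others, and the remaining 3 groups overlapped. The 2 rRNAs made up 2.87, 2.76, 2.80, 2.69 and 2.66% in CD33KO_shPTPN6 and 2.81 to 3.25% (median 2.99) in CD33KO_shCTRL. They made up 2.53 to 2.84% (median 2.67) in WT_shPTPN6 and 2.16 to 2.52% (median 2.39) in WT_shCTRL. For rRNA it was WT_shCTRL that stood apart, below every library of the other groups.

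The summed tRNA counts were a small class, mostly MT-TF and MT-TL1, with a higher median for the hairpin in each genotype. They made up 0.197, 0.154, 0.228, 0.183 and 0.167% of the counts in CD33KO_shPTPN6 and 0.130 to 0.162% (median 0.137) in CD33KO_shCTRL. In WT_shPTPN6 their share was 0.199 to 0.284% (median 0.223), against 0.127 to 0.196% (median 0.153) in WT_shCTRL. The WT_shPTPN6 libraries lay above all WT_shCTRL libraries, though barely, and within the knockout a single CD33KO_shPTPN6 library lay inside the range of CD33KO_shCTRL. MT-TF averaged 1346 CPM in WT_shPTPN6 and 528 in WT_shCTRL, whereas MT-TL1 averaged 662 and 716 CPM, so the sum does not describe every tRNA. The ratio of coding to rRNA counts was 1.21, 1.31, 1.21, 1.31 and 1.33 in CD33KO_shPTPN6 and 1.07 to 1.32 in CD33KO_shCTRL, against 1.77 to 2.23 in WT_shPTPN6 and 1.44 to 1.63 in WT_shCTRL. On this ratio both knockout groups overlapped each other and lay below both wild-type groups, which did not overlap. These shares are descriptions without a test. In bulk RNA, a change in the number of cells of a type and a change in the RNA per cell cannot be told apart.

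**Figure D1:**
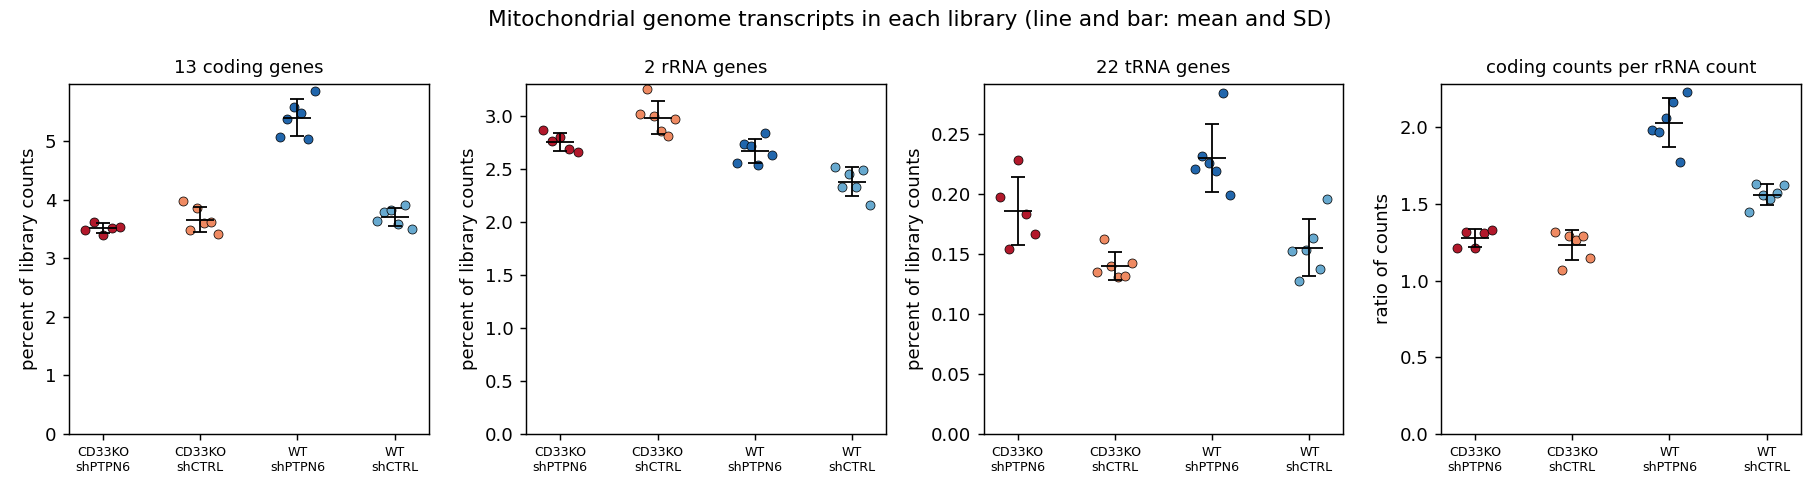
Mitochondrial coding, rRNA and tRNA counts as a percent of each library's total, and the ratio of coding to rRNA counts, with a point per library and the mean and SD of each group. Coding shares of WT_shPTPN6 (5.03 to 5.87%) lie above all other libraries, and rRNA shares of WT_shCTRL (2.16 to 2.52%) below all others.

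In WT_shCTRL, MT-CO3 and MT-RNR2 were the most abundant members per length. There, levels per kilobase of annotated gene were 13694 ± 464 CPM per kb for MT-CO3 and 13646 ± 652 for MT-RNR2, which do not differ beyond their spread (SD, n = 6). MT-ND3 followed with 10856 ± 479 CPM per kb. Next came the tRNAs MT-TL1 with 9545 ± 1689.5 and MT-TF with 7436 ± 900.0, whose shortness raises a value per kilobase. MT-ATP8 had 4631 ± 751 and MT-CO2 4386 ± 189 CPM per kb, within their spread of each other. MT-ND4 (3759.6 ± 199), MT-ATP6 (3477 ± 124), MT-ND2 (3208 ± 247) and MT-CYB (2737 ± 117) formed the middle of the order. MT-ND1 (1677 ± 123) and MT-RNR1 (1643 ± 159) were alike within their spread. The lowest mRNAs were MT-ND4L with 622 ± 52.7, MT-CO1 with 443 ± 19.7, MT-ND5 with 362 ± 36.1 and MT-ND6 with 36.4 ± 8.90 CPM per kb. In WT_shPTPN6, MT-CO3 (21113 ± 966) was followed by MT-TF (18953 ± 2971) and MT-RNR2 (16032 ± 656), and MT-TF is within its spread of both. Reads come from priming sites, so a value per kilobase describes this assay more than the number of molecules.

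Complex I passes electrons from NADH into the respiratory chain, and 7 of its membrane subunits are mitochondrially encoded. MT-ND2, MT-ND4 and MT-ND5 are its antiporter-like proton-pumping subunits, and MT-ND1 adjoins the quinone site. MT-ND5 had 612, 609, 667, 569 and 614 CPM in the CD33KO_shPTPN6 libraries, and 614 to 701 CPM with a median of 672 in CD33KO_shCTRL. MT-ND5 had 1088 to 1293 CPM with a median of 1146 in WT_shPTPN6, and 567.6 to 759 CPM with a median of 666 in WT_shCTRL. MT-ND5 thus reached its highest levels in WT_shPTPN6 without overlap with any other library, and the 3 other groups overlapped. MT-ND4 had 5710.1, 6333, 5945, 6076 and 5902 CPM in the CD33KO_shPTPN6 libraries, and 4931 to 6099 CPM with a median of 5457 in CD33KO_shCTRL. MT-ND4 had 7529 to 9689 CPM with a median of 8764 in WT_shPTPN6, and 4876 to 5530.1 CPM with a median of 5187 in WT_shCTRL. For MT-ND4 too, WT_shPTPN6 lay above every other library. MT-ND2 averaged 3519 ± 146 CPM in CD33KO_shPTPN6, 3594 ± 415 in CD33KO_shCTRL, 5024 ± 460.0 in WT_shPTPN6 and 3343 ± 258 in WT_shCTRL (SD, n = 5, 6, 6 and 6). MT-ND1 averaged 1451 ± 111 CPM in CD33KO_shPTPN6, 1467 ± 161 in CD33KO_shCTRL, 2138 ± 342 in WT_shPTPN6 and 1603 ± 117 in WT_shCTRL. WT_shPTPN6 was again highest for MT-ND2 in every library, whereas for MT-ND1 WT_shPTPN6 replicate 5 lay within the range of WT_shCTRL.

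MT-ND3, MT-ND4L and MT-ND6 are small membrane subunits of complex I, and MT-ND6 is the only mRNA of the light strand. MT-ND3 averaged 3462 ± 161 CPM in CD33KO_shPTPN6, 3371 ± 199 in CD33KO_shCTRL, 5086 ± 551 in WT_shPTPN6 and 3756 ± 166 in WT_shCTRL. MT-ND4L had 238, 252, 255, 233 and 242 CPM in the CD33KO_shPTPN6 libraries, and 217 to 239 CPM with a median of 225 in CD33KO_shCTRL. MT-ND4L had 326 to 400.5 CPM with a median of 353 in WT_shPTPN6, and 162 to 203 CPM with a median of 185 in WT_shCTRL. For MT-ND4L, WT_shPTPN6 lay above and WT_shCTRL below all knockout libraries. MT-ND6 had 31.6, 32.9, 53.0, 41.2 and 35.6 CPM in the CD33KO_shPTPN6 libraries, and 32.6 to 44.5 CPM with a median of 37.6 in CD33KO_shCTRL. MT-ND6 had 36.3 to 46.5 CPM with a median of 38.8 in WT_shPTPN6, and 14.5 to 25.7 CPM with a median of 18.01 in WT_shCTRL. For MT-ND6 it was WT_shCTRL alone that stood apart, below every library of the other 3 groups, which overlapped. MT-ND6 had only 64 counts in its lowest library. How the counting treated strand is not given in the sources used here, so RNA of the heavy-strand transcript opposite MT-ND6 cannot be told apart from its mRNA.

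MT-CYB, the haem-bearing cytochrome b of complex III, is the only mitochondrially encoded subunit of that complex. MT-CYB had 3228, 3181, 2848, 3054 and 2927 CPM in the CD33KO_shPTPN6 libraries, and 3048 to 3594 CPM with a median of 3148 in CD33KO_shCTRL. MT-CYB had 4301 to 5189 CPM with a median of 4689.9 in WT_shPTPN6, and 2993 to 3349 CPM with a median of 3072 in WT_shCTRL. All WT_shPTPN6 libraries were above all others for MT-CYB, and the other groups overlapped.

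Complex IV, cytochrome c oxidase, reduces oxygen at a haem and copper centre in MT-CO1, receives electrons through MT-CO2, and holds MT-CO3 as a subunit without a metal centre. MT-CO1 had 869, 963, 843, 883 and 904 CPM in the CD33KO_shPTPN6 libraries, and 667 to 905 CPM with a median of 801 in CD33KO_shCTRL. MT-CO1 had 1038 to 1399 CPM with a median of 1255 in WT_shPTPN6, and 653 to 741 CPM with a median of 677 in WT_shCTRL. MT-CO1 was highest in WT_shPTPN6 without overlap and had its lowest median in WT_shCTRL, and CD33KO_shPTPN6 lay above WT_shCTRL without overlap. MT-CO3 had 11196, 10682, 11152, 10601 and 10867 CPM in the CD33KO_shPTPN6 libraries, and 10674 to 12107 CPM with a median of 11219 in CD33KO_shCTRL. MT-CO3 had 15429.7 to 17535 CPM with a median of 16664 in WT_shPTPN6, and 10196 to 11143 CPM with a median of 10837 in WT_shCTRL. For MT-CO3, WT_shPTPN6 lay above all other libraries and the 3 other groups overlapped. MT-CO2 averaged 3179 ± 139.7 CPM in CD33KO_shPTPN6, 2981 ± 66.2 in CD33KO_shCTRL, 4075 ± 289.9 in WT_shPTPN6 and 3000.4 ± 129 in WT_shCTRL. MT-CO2 likewise had its highest values in WT_shPTPN6, without overlap.

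ATP synthase uses the proton gradient to make ATP, and MT-ATP6 forms part of its proton channel while MT-ATP8 is a small subunit of its peripheral stalk. MT-ATP6 had 3237, 3366, 2899, 3162 and 2977 CPM in the CD33KO_shPTPN6 libraries, and 2367 to 2868 CPM with a median of 2480.5 in CD33KO_shCTRL. MT-ATP6 had 4177 to 4864 CPM with a median of 4477 in WT_shPTPN6, and 2243 to 2469 CPM with a median of 2350.0 in WT_shCTRL. MT-ATP6 was highest in WT_shPTPN6, and CD33KO_shPTPN6 lay above both control-vector groups without overlap. MT-ATP8 had 703, 636, 944, 584 and 784 CPM in the CD33KO_shPTPN6 libraries, and 744 to 960.3 CPM with a median of 839 in CD33KO_shCTRL. MT-ATP8 had 1281 to 1697 CPM with a median of 1434 in WT_shPTPN6, and 734 to 1185 CPM with a median of 994 in WT_shCTRL. MT-ATP8 was also highest in WT_shPTPN6, but CD33KO_shPTPN6 had the lowest median of the 4 groups and overlapped with both control-vector groups.

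**Figure D2:**
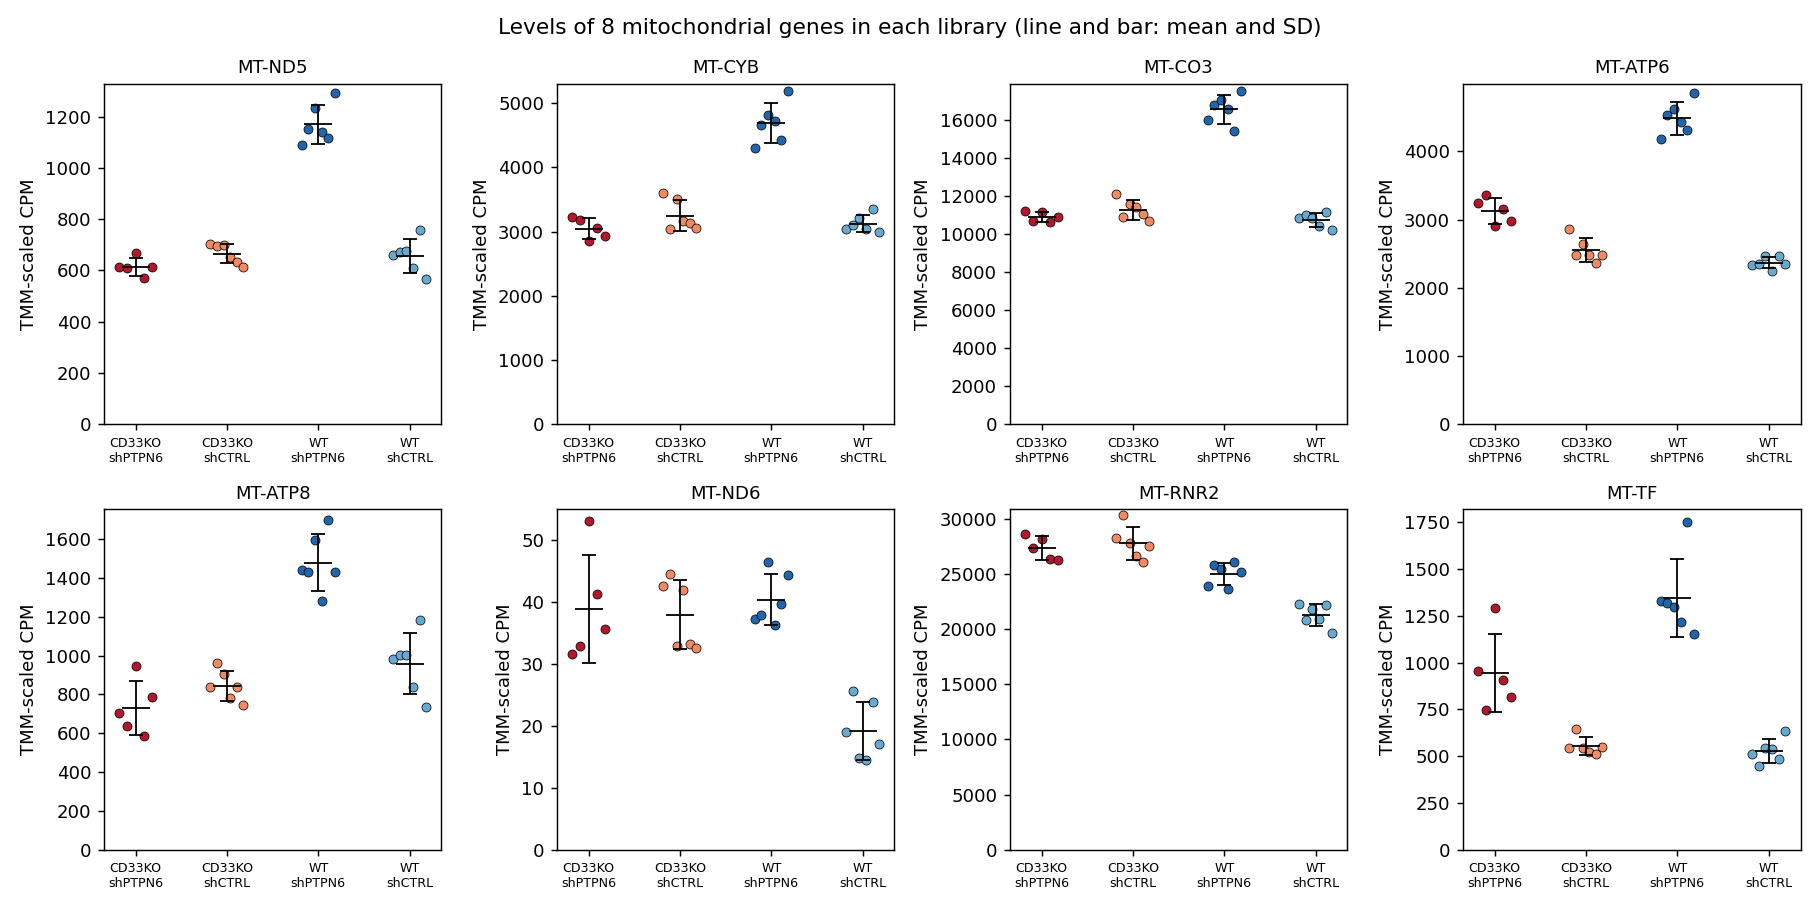
TMM-scaled CPM of 8 mitochondrial genes in each library, with the mean and SD of each group. MT-ND5, MT-CYB, MT-CO3, MT-ATP6 and MT-ATP8 are highest in WT_shPTPN6, whereas for MT-ND6 and MT-RNR2 the WT_shCTRL libraries are the ones that stand apart, below the rest.

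The rRNAs of the small (MT-RNR1) and large (MT-RNR2) mitochondrial ribosomal subunits lie at the start of the heavy-strand transcript. MT-RNR2 had 28626, 27327, 28179, 26363 and 26224 CPM in the CD33KO_shPTPN6 libraries, and 26083 to 30298 CPM with a median of 27683 in CD33KO_shCTRL. MT-RNR2 had 23613 to 26076 CPM with a median of 25299 in WT_shPTPN6, and 19624 to 22287 CPM with a median of 21352 in WT_shCTRL. WT_shCTRL libraries were below all others for MT-RNR2, and both knockout groups lay above WT_shPTPN6 without overlap. MT-RNR1 had 1918, 1788, 2079, 1728 and 1814 CPM in the CD33KO_shPTPN6 libraries, and 1913 to 2272 CPM with a median of 2000.2 in CD33KO_shCTRL. MT-RNR1 had 1903 to 2255 CPM with a median of 2138 in WT_shPTPN6, and 1351 to 1763 CPM with a median of 1570.4 in WT_shCTRL. MT-RNR1 separated both CD33KO_shCTRL and WT_shPTPN6 from WT_shCTRL, whereas CD33KO_shPTPN6 overlapped with WT_shCTRL.

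Among the tRNAs, MT-TF (phenylalanine) and MT-TV (valine) flank MT-RNR1, and MT-TV is also a structural part of the human mitochondrial ribosome. MT-TF had 954, 749.6, 1291, 909 and 817 CPM in the CD33KO_shPTPN6 libraries, and 511 to 647 CPM with a median of 543 in CD33KO_shCTRL. MT-TF had 1155 to 1754 CPM with a median of 1308 in WT_shPTPN6, and 449.8 to 637 CPM with a median of 527 in WT_shCTRL. MT-TF separated hairpin from control-vector libraries in both genotypes. MT-TV had 125, 94.6, 106, 102 and 83.0 CPM in the CD33KO_shPTPN6 libraries, and 59.2 to 86.6 CPM with a median of 69.1 in CD33KO_shCTRL. MT-TV had 132 to 167 CPM with a median of 146 in WT_shPTPN6, and 84.2 to 153 CPM with a median of 106 in WT_shCTRL. MT-TV had its lowest median in CD33KO_shCTRL and its highest in WT_shPTPN6, which lay above both knockout groups. MT-TL1 averaged 758 ± 96.5 CPM in CD33KO_shPTPN6, 623 ± 43.0 in CD33KO_shCTRL, 662 ± 40.7 in WT_shPTPN6 and 716 ± 127 in WT_shCTRL. MT-TL1, the leucine tRNA behind MT-RNR2, overlapped between all groups. The other 12 tested tRNAs had group means from 1.52 to 48.3 CPM, and MT-TG had a single count in its lowest library.

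Wild-type cells with the hairpin against PTPN6 were set against wild-type cells with the empty vector. CD33 RNA was itself higher in WT_shPTPN6 than in WT_shCTRL (log2 fold change 0.97, edgeR adjusted p = 4.95e-23). Mitochondrial mRNAs rose together, since all 13 coding genes, both rRNAs and 11 of 15 tRNAs were higher in WT_shPTPN6 than in WT_shCTRL. In all, 26 of the 30 tested genes were called higher and 0 lower with the edgeR quasi-likelihood test at an adjusted p under 0.05 over 13098 genes, against 30.2% higher and 30.4% lower among all tested genes. At an unadjusted p under 0.05, and by DESeq2, the number lower was also 0. The median log2 fold change was 0.61 for the 30 genes and 0.00 for all genes. Libraries of the groups did not overlap for 18 of the 30 genes, all higher, against 18.4% of all genes higher and 19% lower. For the coding genes this held for 12 of 13, with MT-ND1 as the exception.

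By role, the subunits of complex I rose by a median of 0.73 on the log2 scale, those of complex IV by 0.62 and those of ATP synthase by 0.77. The largest rise of an mRNA was that of MT-ND6 (log2 fold change 1.08 ± 0.11, with SE as for all log2 fold changes here; edgeR adjusted p = 1.52e-12). MT-ND4L (0.94 ± 0.05, adjusted p = 2.98e-34), MT-ATP6 (0.92 ± 0.04, adjusted p = 3.17e-37), MT-CO1 (0.85 ± 0.07, adjusted p = 6.6e-12) and MT-ND5 (0.83 ± 0.05, adjusted p = 1.71e-28) followed (edgeR). MT-ND4 rose by 0.73, MT-CO3 and MT-ATP8 by 0.62 each, and MT-CYB and MT-ND2 by 0.59 each. The smallest rises of mRNAs were those of MT-CO2 and MT-ND3 with 0.44 each and of MT-ND1 with 0.42 ± 0.09 (edgeR adjusted p = 0.000652). The rRNAs rose less than most mRNAs, by 0.43 ± 0.05 for MT-RNR1 and 0.23 ± 0.04 for MT-RNR2 (edgeR adjusted p = 1.93e-11 and 1.43e-06).

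The tRNAs spread further than the mRNAs in the same comparison. MT-TD rose by 1.42 ± 0.23, MT-TF by 1.35 ± 0.12 and MT-TG by 1.19 ± 0.31 (edgeR adjusted p = 3.32e-08, 2.73e-09 and 0.000555). MT-TL2 and MT-TH rose by 0.94 each, MT-TM by 0.69, MT-TS2 by 0.63, MT-TC by 0.51, MT-TV by 0.39, MT-TT by 0.36 and MT-TI by 0.33. In WT_shCTRL, MT-TD, MT-TG and MT-TL2 averaged 3.01 ± 1.17, 1.52 ± 0.478 and 1.89 ± 0.479 CPM (SD), so their rises rest on few counts. The 4 genes not called were MT-TQ (0.21), MT-TY (0.02), MT-TP (-0.10) and MT-TL1 (-0.11), of which MT-TQ, MT-TY and MT-TP belong to the light-strand transcript. MT-TC and MT-ND6, both called higher, belong to the light-strand transcript too. With raw library totals the calls of MT-TI, MT-TC and MT-TT were lost (adjusted p = 0.13, 0.0655 and 0.0604 in edgeR), and that of MT-TI also with DESeq2. Over all alternatives the adjusted p of MT-TI ran from 0.00314 to 0.13. All 11 tested macrophage markers were also higher in WT_shPTPN6, against 30.2% of all genes. With the knockdown in the knockout, 6 of the 11 markers were higher and 0 lower, against 20.5% and 21.6%. In CD33KO_shPTPN6 against WT_shPTPN6, 2 markers were higher and 8 lower, against 29% and 27.5%. Ribosomal protein transcripts took 8.62 ± 0.129% of the counts in WT_shPTPN6, against 6.04 ± 0.420% in WT_shCTRL (SD). In the knockout they took 7.06 ± 0.181% in CD33KO_shPTPN6, against 4.28 ± 0.0851% in CD33KO_shCTRL. The part of these markers and transcripts in the result was not tested.

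The same knockdown in CD33 knockout cells gave 3 of 13 coding genes called higher and 0 lower by edgeR. The share higher was near the 20.5% of all tested genes, of which 21.6% were lower. Of the 30 genes, 9 were called higher and 2 lower in CD33KO_shPTPN6 than in CD33KO_shCTRL, against 20.5% and 21.6% of all tested genes. That balance turned with the scaling, to 5 higher and 6 lower with raw library totals, and was 6 higher and 4 lower when only the compared groups were fitted. Libraries did not overlap for 4 genes, all higher, against 11.8% of all genes higher and 12.4% lower. The median log2 fold change was 0.10 for the 30 genes and 0.04 for the 13 coding genes, against -0.01 for all genes. For the 30 genes it was 0.02 with raw library totals, which moved all genes to -0.10, and 0.03 with only the compared groups. MT-ATP6 was the called mRNA with the largest rise (0.29 ± 0.05, adjusted p = 7.13e-08, edgeR), and its libraries did not overlap. MT-CO1 (0.18 ± 0.07, adjusted p = 0.0423) and MT-ND4 (0.12 ± 0.05, adjusted p = 0.0455) were called by edgeR with overlapping libraries, and leaving out single libraries ended those calls in 13 and 11 of 23 fits, with adjusted p up to 0.105 and 0.163. The 10 coding genes not called ran from -0.21 for MT-ATP8 to 0.12 for MT-ND4L.

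Most of the rises in the knockout were those of tRNAs. MT-TD and MT-TG rose by 1.13 ± 0.32 and 1.13 ± 0.37 (edgeR adjusted p = 0.00234 and 0.00978), MT-TF by 0.77 ± 0.13 and MT-TV by 0.52 ± 0.15 (edgeR adjusted p = 4.76e-05 and 0.00903). MT-TD and MT-TG averaged 6.38 ± 2.02 and 4.76 ± 1.07 CPM in CD33KO_shPTPN6 and 2.85 ± 0.828 and 2.05 ± 0.949 CPM in CD33KO_shCTRL (SD), so both rest on few counts. MT-TT (0.43) and MT-TL1 (0.28) were called higher by edgeR, but lost the call without single libraries in 7 and 5 of 23 fits. MT-TS2 fell by 0.63 on the log2 scale (edgeR adjusted p = 0.00957). MT-RNR1 was called lower with -0.13 ± 0.05, adjusted p = 0.0474 (edgeR), and that call was lost in 11 of 23 fits without a single library, with adjusted p up to 0.164. The 8 tRNAs not called ran from -0.25 for MT-TY to 0.41 for MT-TH.

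The difference between the knockdown effects was tested directly as an interaction, the effect in CD33KO minus that in WT. It was below 0 for all 13 coding genes and both rRNAs, and 18 of the 30 genes were called lower and 1 higher by edgeR, against 13.9% lower and 14.5% higher among all tested genes. The median was -0.54 for the 30 genes and -0.66 for coding genes, against 0.00 for all genes. MT-ND6 had the largest value of an mRNA (-1.04 ± 0.18, adjusted p = 3.02e-06, edgeR), followed by MT-ND5 (-0.95 ± 0.07, adjusted p = 3.01e-20), MT-ATP8 (-0.83 ± 0.17, adjusted p = 0.000633) and MT-ND4L (-0.83 ± 0.08, adjusted p = 5e-17). MT-CYB (-0.68), MT-CO3 (-0.67), MT-CO1 (-0.66), MT-ATP6 (-0.63), MT-ND2 (-0.62) and MT-ND4 (-0.61) lay near the median of the coding genes. MT-ND1 (-0.43), MT-ND3 (-0.40) and MT-CO2 (-0.35) had the smallest values of the mRNAs. MT-RNR1 had -0.56 ± 0.07, adjusted p = 3.86e-09 and MT-RNR2 -0.25 ± 0.06, adjusted p = 0.000666 (edgeR). Of the tRNAs, MT-TS2 (-1.25 ± 0.25, adjusted p = 3.19e-05), MT-TM (-0.84 ± 0.25, adjusted p = 0.00705) and MT-TF (-0.58 ± 0.17, adjusted p = 0.0167) were lower and MT-TL1 (0.40 ± 0.14, adjusted p = 0.0388) higher by edgeR. The call of MT-TL1 was lost without the filter on low counts (adjusted p = 0.108, edgeR) and in 12 of 23 fits without a single library. The 11 tRNAs not called ran from -0.72 for MT-TL2 to 0.13 for MT-TV.

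**Figure D3:**
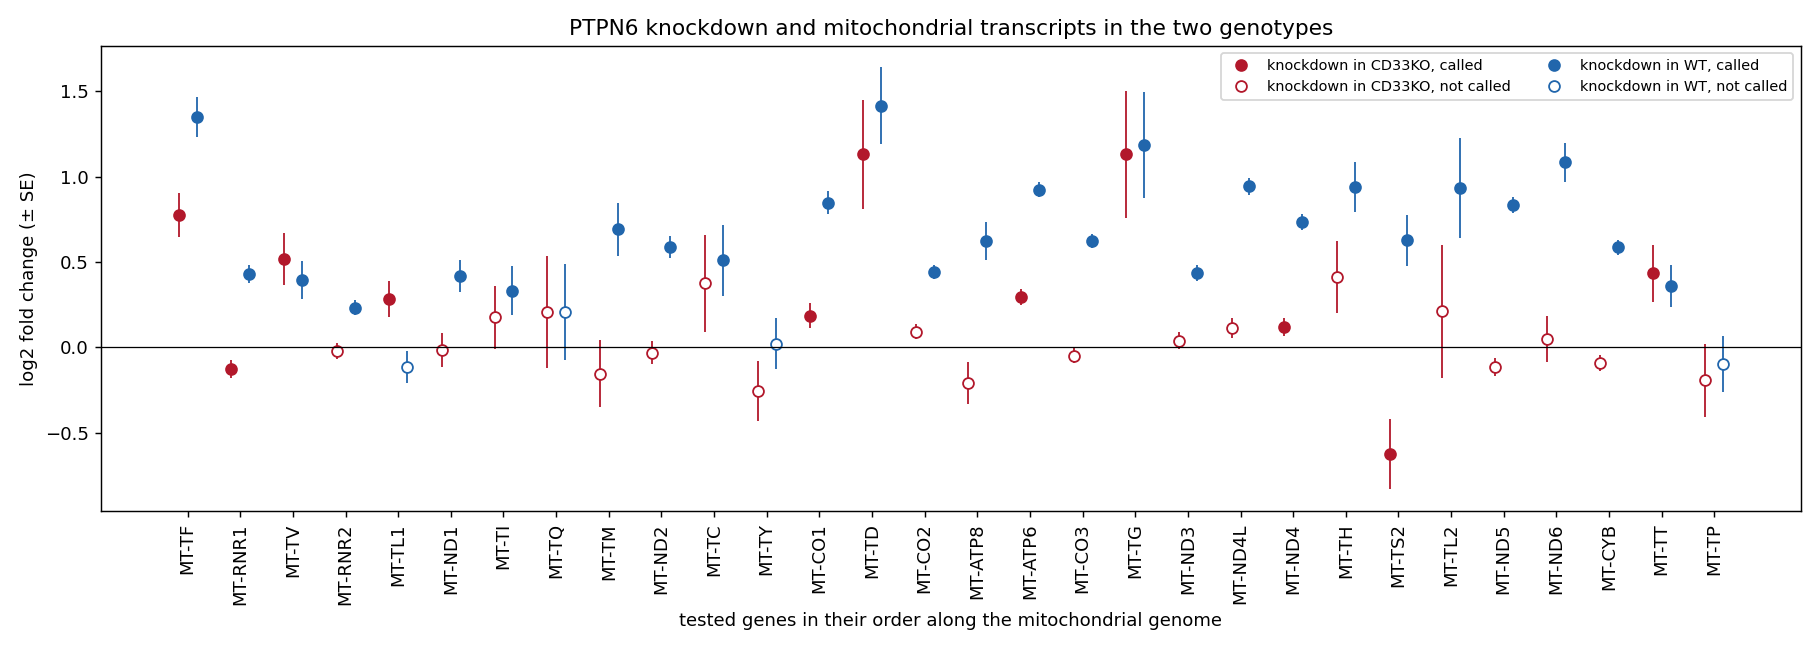
Log2 fold change ± SE of the 30 tested mitochondrial genes after PTPN6 knockdown, in CD33KO (red) and WT (blue) cells, in the order of the genome; filled points were called at an edgeR adjusted p under 0.05 and open points were not. In WT all 13 mRNAs are above 0.4, whereas in CD33KO they run from -0.21 to 0.29.

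CD33 knockout cells with the control vector were set against wild-type cells with the same vector. The rRNAs, MT-ND6 and MT-ND4L rose, whereas 8 of 13 coding genes were not called. Of the 30 genes, 9 were called higher and 2 lower in CD33KO_shCTRL than in WT_shCTRL by edgeR, against 28.3% and 28.4% of all tested genes, and the median was 0.09 against -0.01 for all genes. For 5 genes, all higher, the libraries did not overlap, against 16.7% of all genes higher and 17.4% lower. They were MT-ND6 (0.98 ± 0.13, adjusted p = 9.15e-10), MT-RNR1 (0.38 ± 0.05, adjusted p = 1.37e-09), MT-RNR2 (0.38 ± 0.04, adjusted p = 1.31e-13), MT-ND4L (0.29 ± 0.05, adjusted p = 1.53e-06) and MT-TY (0.68 ± 0.15, adjusted p = 6.02e-05, edgeR). MT-TM (0.65) and MT-TS2 (0.50) were also called higher. MT-CO1 (0.20 ± 0.07, adjusted p = 0.0142) and MT-ATP6 (0.11 ± 0.04, adjusted p = 0.0325) were called higher by edgeR, but the call of MT-ATP6 was lost with DESeq2 (adjusted p = 0.0593), with raw library totals (edgeR adjusted p = 0.309) and in 9 of 23 fits without a single library. That of MT-CO1 was lost with raw library totals (edgeR adjusted p = 0.0747) and without CD33KO_shCTRL replicate 5 or WT_shCTRL replicate 6. MT-TV fell by 0.65 and MT-ND3 by 0.16 on the log2 scale (edgeR adjusted p = 0.000258 and 0.00366). The 8 coding genes not called ran from -0.18 for MT-ATP8 to 0.10 for MT-ND2, and the 11 tRNAs not called from -0.22 for MT-TT to 0.60 for MT-TQ.

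The same genotypes were also compared under PTPN6 knockdown. In CD33KO_shPTPN6, 12 of 13 coding genes were lower than in WT_shPTPN6, each without overlap between the libraries, and only MT-ND6 was not called (-0.06 ± 0.12, adjusted p = 0.716, edgeR). Over all 30 genes 17 were called lower and 2 higher, against 27.5% lower and 29% higher among all tested genes. Libraries did not overlap for 14 genes lower and 1 higher, against 18.1% and 19.1% of all genes. The median log2 fold change was -0.41 for the 30 genes, -0.54 for complex I subunits and -0.46 for complex IV subunits, against 0.01 for all genes. MT-ATP8 fell most, by 1.02 on the log2 scale, and MT-ND5 by 0.93 (edgeR adjusted p = 4.26e-07 and 5.45e-29). MT-CYB (-0.62 ± 0.05, adjusted p = 2.67e-22) and MT-CO3 (-0.60 ± 0.04, adjusted p = 1.93e-23) followed (edgeR), then MT-ND1 (-0.56), MT-ND3 (-0.55), MT-ND4L (-0.54), MT-ND4 and MT-ATP6 (-0.52 each), MT-ND2 (-0.51), MT-CO1 (-0.46) and MT-CO2 (-0.36).

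The rRNAs parted in that comparison. MT-RNR1 was lower (-0.18 ± 0.05, adjusted p = 0.00311) and MT-RNR2 higher (0.13 ± 0.04, adjusted p = 0.0102, edgeR), with no overlap for MT-RNR2, but the call of MT-RNR2 was lost with raw library totals (edgeR adjusted p = 0.152), without the low-count filter (edgeR adjusted p = 0.303), and without WT_shPTPN6 replicate 1 or 4. Of the tRNAs, MT-TS2 (-0.75 ± 0.19, adjusted p = 0.000399), MT-TH (-0.57 ± 0.18, adjusted p = 0.00351), MT-TV (-0.53 ± 0.13, adjusted p = 0.00213) and MT-TF (-0.51 ± 0.13, adjusted p = 0.00157) were lower by edgeR. MT-TY was called higher (0.41 ± 0.17, adjusted p = 0.0391, edgeR), a call lost in 14 of 23 fits without a single library. The 10 tRNAs not called ran from -0.37 for MT-TD to 0.61 for MT-TQ.

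Cells with both changes were also set against WT_shCTRL. In CD33KO_shPTPN6, 14 of the 30 genes were called higher and 2 lower by edgeR, against 32.1% and 31.7% of all tested genes, and the median was 0.31 against 0.00 for all genes. Libraries did not overlap for 9 genes, all higher, against 22.6% of all genes higher and 23.1% lower. The mRNAs among them were MT-ND6 (1.03 ± 0.13, adjusted p = 1.33e-09), MT-ATP6 (0.40 ± 0.05, adjusted p = 4.03e-13), MT-ND4L (0.40 ± 0.06, adjusted p = 4.32e-10), MT-CO1 (0.39 ± 0.07, adjusted p = 3.19e-05) and MT-ND4 (0.21 ± 0.05, adjusted p = 0.000162, edgeR). MT-RNR2 (0.36), MT-TG (1.63), MT-TD (1.05) and MT-TF (0.84) completed the 9 genes. MT-RNR1 (0.25), MT-TQ (0.81), MT-TM (0.49), MT-TI (0.47) and MT-TY (0.43) were called higher with overlapping libraries. MT-ATP8 and MT-ND3 were called lower (-0.39 ± 0.12, adjusted p = 0.00853 and -0.12 ± 0.05, adjusted p = 0.0352, edgeR), with overlapping libraries. Without single libraries the call was lost in 4 of 23 fits for MT-ND3 (edgeR adjusted p up to 0.116), 5 for MT-TM, 3 each for MT-TQ and MT-TY and 2 for MT-TI. The remaining 6 coding genes ran from -0.14 for MT-ND1 to 0.08 for MT-CO2 and were not called. With raw library totals, 8 genes were called higher and 6 lower, and that scaling moved the median of all genes to -0.14. These comparisons share control libraries with the single changes, so the members' values are given for each without an overlap count.

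To describe the make-up of the mitochondrial RNA itself, the whole table was fitted again with each library's summed mitochondrial count as its library size. This moved the median of all genes to -0.49 for the knockdown in wild type, -0.18 for the knockout, 0.31 for the knockout under knockdown, -0.03 for the knockdown in the knockout and 0.48 for the interaction. The members' values below are relative to the mitochondrial total, and a rise of some members forces a fall of others. The shares of all genes called follow from the same shift, so on this scale they are no background for the members. Where most genes are called, adjustment over all genes changes p little. For MT-TG with the knockdown in wild type, p was 0.0273 before and 0.0365 after adjustment (edgeR). Relative to that total, WT_shPTPN6 had 11 of 30 genes higher and 4 lower than WT_shCTRL, against 7.95% and 68% of all tested genes (edgeR). The genes with larger shares were MT-TD (0.93), MT-TF (0.86), MT-TG (0.71), MT-ND6 (0.59), MT-ND4L and MT-TH (0.45 each), MT-ATP6 (0.43), MT-CO1 (0.35), MT-ND5 (0.34), MT-ND4 (0.24) and MT-CO3 (0.13). Those with smaller shares were MT-TL1 (-0.61), MT-TP (-0.59), MT-TY (-0.46) and MT-RNR2 (-0.26). MT-RNR1, MT-CO2, MT-ND3, MT-ND1, MT-ND2, MT-ATP8 and MT-CYB were not called on this scale, although each had risen on the library scale. With only the 13 coding genes as the total, 7 shares were larger and 8 smaller, and the calls of MT-CO3, MT-ND4, MT-TG and MT-TH were lost. The adjusted p then was 0.997 for MT-CO3 and 0.0597 for MT-ND4 (edgeR). The share of all genes called with that total was not taken.

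Within the mitochondrial RNA of CD33KO_shCTRL, 5 genes had larger and 10 smaller shares than in WT_shCTRL, against 18.2% and 40.3% of all genes (edgeR). With only the 13 coding genes as the total, 8 were larger and 3 smaller, and MT-CYB and MT-CO3 changed sign to 0.02 and 0.03. MT-ND6 (0.81 ± 0.12, adjusted p = 4.64e-09), MT-RNR1 and MT-RNR2 (0.21 ± 0.05 and 0.21 ± 0.05) were among the larger, and MT-TV (-0.83 ± 0.14, adjusted p = 2.81e-05), MT-ND3 (-0.33 ± 0.05, adjusted p = 7.29e-09) and MT-ND1 (-0.31 ± 0.06, adjusted p = 6.1e-05) among the smaller (edgeR). Between CD33KO_shPTPN6 and WT_shPTPN6, 7 shares were larger and 12 smaller, against 49.3% and 14% of all genes. MT-RNR2 took a larger share (0.43 ± 0.05, adjusted p = 1.01e-12, edgeR), and MT-ATP8 (-0.72 ± 0.11, adjusted p = 9.72e-06) and MT-ND5 (-0.63 ± 0.05, adjusted p = 3.27e-19) had the largest falls in share among the mRNAs (edgeR). The knockdown in the knockout gave 6 larger and 2 smaller shares, against 18.4% and 21.9% of all genes, led by MT-TD (1.11), MT-TG (1.11), MT-TF (0.76) and MT-TV (0.50). The interaction on this scale was called for 4 genes above and 7 below 0, against 52.8% and 3.47% of all genes. Those below were MT-TS2 (-0.78), MT-ND6 (-0.56), MT-ND5 (-0.47), MT-ND4L (-0.35), MT-CYB (-0.20), MT-CO3 (-0.19) and MT-CO1 (-0.18), and those above MT-TL1 (0.88), MT-TV (0.60), MT-TT (0.55) and MT-RNR2 (0.22). When only the 13 coding genes made up the total, 7 of the 12 smaller shares between CD33KO_shPTPN6 and WT_shPTPN6 turned to values from 0.01 to 0.10, all uncalled.

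Count ratios of genes read from one precursor, or from one mRNA, overlapped between some groups and not between others. Counts of MT-ATP6 over MT-ATP8, the overlapping pair shown above, were 4.61, 5.29, 3.07, 5.41 and 3.79 in CD33KO_shPTPN6 and 2.58 to 3.42 with a median of 3.05 in CD33KO_shCTRL. They were 2.54 to 3.45 with a median of 3.04 in WT_shPTPN6 and 2.08 to 3.20 with a median of 2.41 in WT_shCTRL, so CD33KO_shPTPN6 had the highest median, and all groups overlapped. MT-ND4 over MT-ND4L, the other overlapping pair, was 24.0, 25.1, 23.3, 26.0 and 24.4 in CD33KO_shPTPN6 and 21.7 to 26.7 with a median of 24.7 in CD33KO_shCTRL. It was 21.3 to 26.38 with a median of 24.4 in WT_shPTPN6 and 26.41 to 33.2 with a median of 27.3 in WT_shCTRL. WT_shCTRL thus lay above both hairpin groups, though barely above WT_shPTPN6, and overlapped with CD33KO_shCTRL. The count for such a shared mRNA depends on where along it a read was primed and on how reads in shared bases were assigned, which the sources used here do not give.

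Across strands, MT-ND5 and MT-ND6 are neighbours that face each other. Their count ratio was 19.4, 18.5, 12.6, 13.8 and 17.2 in CD33KO_shPTPN6 and 15.5 to 21.3 with a median of 17.7 in CD33KO_shCTRL. In WT_shPTPN6 it was 26.5 to 31.4 with a median of 29.2, and in WT_shCTRL 26.2 to 45.8 with a median of 34.0. Every knockout library lay below every wild-type library. MT-TF over MT-RNR1, which adjoin at the start of the heavy-strand transcript, had ratios of 0.497, 0.419, 0.621, 0.526 and 0.450 in CD33KO_shPTPN6 and 0.260 to 0.285 with a median of 0.273 in CD33KO_shCTRL. The ratio was 0.570 to 0.778 with a median of 0.619 in WT_shPTPN6 and 0.275 to 0.472 with a median of 0.319 in WT_shCTRL. Hairpin libraries lay above control-vector libraries in each genotype. Light-strand genes took 0.131 ± 0.0284% of mitochondrial counts in CD33KO_shPTPN6, 0.136 ± 0.0168% in CD33KO_shCTRL, 0.101 ± 0.00711% in WT_shPTPN6 and 0.105 ± 0.0162% in WT_shCTRL (SD). These ratios and shares are descriptions with no test.

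**Figure D4:**
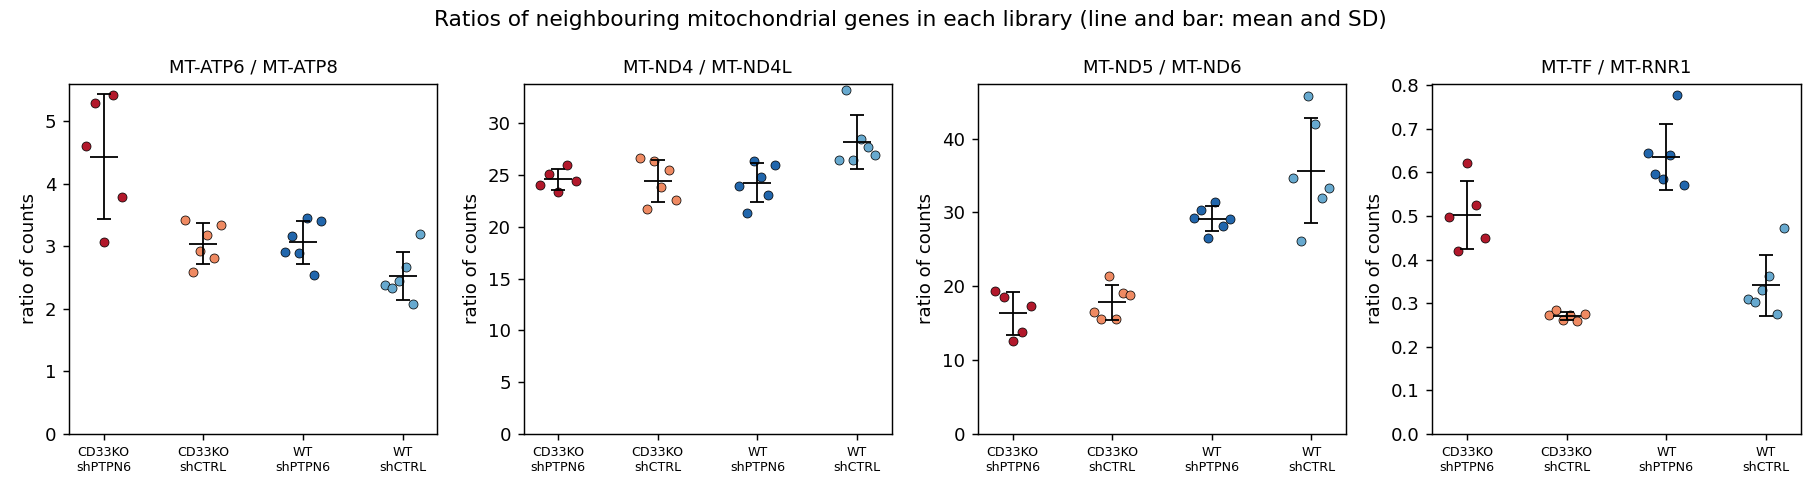
Ratios of counts between neighbouring mitochondrial genes in each library, with the mean and SD of each group. MT-TF over MT-RNR1 is higher in hairpin than in control-vector libraries of both genotypes, and MT-ND5 over MT-ND6 is lower in all knockout than in all wild-type libraries.

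Nuclear genes for the partners of these proteins were read from the same edgeR fit. After knockdown in wild type, with 30.2% of all genes higher and 30.4% lower, 22 of 37 nuclear complex I genes were higher and 6 lower, with a median log2 fold change of 0.27. Complex III had 8 of 9 higher (median 0.51), complex IV 6 of 11 (0.21) and ATP synthase 12 of 16 with 1 lower (0.30), against a median of 0.00 over all genes. UQCRC1 and UQCRH, a core and a hinge subunit of complex III, rose by 0.78 and 0.75, and CYC1, its cytochrome c1, by 0.77 ± 0.05, adjusted p = 6.61e-27 (edgeR). ATP5F1B, the catalytic beta subunit of ATP synthase, rose by 0.72 ± 0.05, adjusted p = 4.87e-28, and COX4I1 of complex IV by 0.59 ± 0.05, adjusted p = 4.32e-21 (edgeR). NDUFB6 of complex I fell by 1.10 on the log2 scale. Complex II, which has no mitochondrially encoded subunit, had 2 of 4 genes higher (median 0.23).

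In CD33KO_shPTPN6 against WT_shPTPN6 the nuclear partners were mostly lower too. With 27.5% of all genes lower and 29% higher, this held for 25 of 37 complex I genes with 4 higher (median -0.23), 8 of 9 complex III genes with 1 higher (-0.36), 11 of 11 complex IV genes (-0.55) and 15 of 16 ATP synthase genes (-0.60). ATP5F1C, the gamma subunit, fell by 1.00 and UQCRH by 0.91 on the log2 scale. With the control vector, where 28.4% of all genes were lower and 28.3% higher, the knockout gave 13 lower and 7 higher complex I genes (median -0.07), 7 of 11 complex IV genes lower with 1 higher (-0.23) and 14 of 16 ATP synthase genes lower with 1 higher (-0.30). The mitochondrially encoded MT-ATP6 and MT-ATP8 had 0.11 and -0.18 there, MT-CO1 0.20, MT-CO2 -0.01 and MT-CO3 0.07. The knockdown in the knockout, where 20.5% of all genes were higher and 21.6% lower, gave 8 higher and 7 lower complex I genes (median -0.03), 6 higher and 1 lower complex III genes (0.22), 3 higher and 4 lower complex IV genes (-0.02) and 4 higher and 5 lower ATP synthase genes (0.06). The interaction was called below 0 for 13 complex I, 6 complex III, 8 complex IV and 10 ATP synthase genes and above 0 for 1 ATP synthase gene, against 13.9% below and 14.5% above among all genes. Those below include ATP5F1B (-0.63 ± 0.07, adjusted p = 3.61e-13) and UQCRH (-0.59 ± 0.06, adjusted p = 9.45e-14, edgeR).

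**Figure D5:**
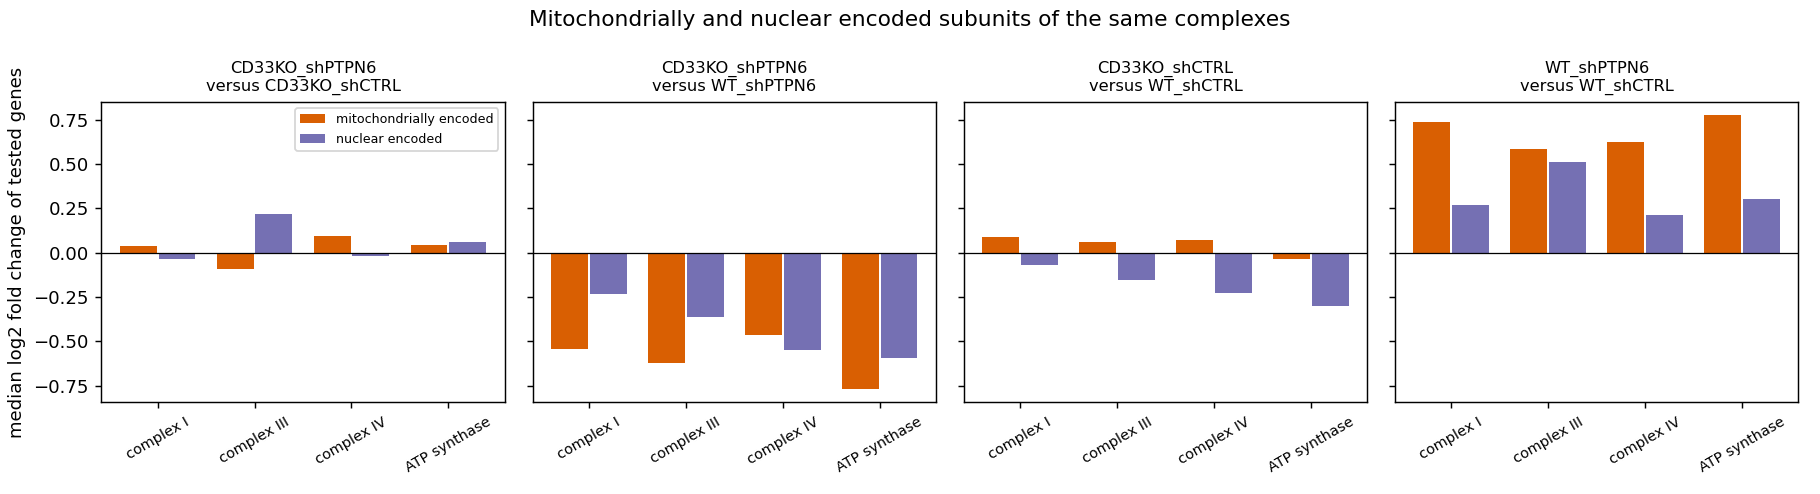
Median log2 fold change of the mitochondrially and the nuclear encoded subunits of complexes I, III and IV and ATP synthase in 4 comparisons. Both sets are above 0 in WT_shPTPN6 against WT_shCTRL and below 0 in CD33KO_shPTPN6 against WT_shPTPN6.

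Of 9 genes for transcription of mitochondrial DNA, 1 was higher after knockdown in wild type, against 30.2% of all genes. It was MRPL12 (0.35 ± 0.08, adjusted p = 0.000119, edgeR), a ribosomal protein that binds the mitochondrial RNA polymerase. In CD33KO_shCTRL against WT_shCTRL, 2 of the 9 were higher and 1 lower, against 28.3% and 28.4% of all genes. In CD33KO_shPTPN6 against WT_shPTPN6, 1 was higher and 1 lower, against 29% and 27.5%. The polymerase bound by MRPL12, POLRMT, rose in CD33KO_shCTRL against WT_shCTRL (0.88 ± 0.13, adjusted p = 3.65e-09, edgeR) and in CD33KO_shPTPN6 against WT_shPTPN6 (0.67 ± 0.14, adjusted p = 2.59e-05, edgeR). POLRMT averaged 23.6 ± 2.83 CPM in CD33KO_shPTPN6, 24.8 ± 3.24 in CD33KO_shCTRL, 14.9 ± 2.85 in WT_shPTPN6 and 13.5 ± 1.63 in WT_shCTRL (SD), so both knockout groups were higher than both wild-type groups. SSBP1, the single-stranded DNA binding protein of mitochondrial replication, fell by 0.70 in CD33KO_shCTRL against WT_shCTRL and by 1.00 in CD33KO_shPTPN6 against WT_shPTPN6 on the log2 scale. Of the 12 genes for replication and nucleoids, 3 were higher and 3 lower in the first comparison and 1 higher and 3 lower in the second. The shares of all genes were those given above.

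Of 24 genes for mitochondrial RNA processing and stability, 8 were higher and 2 lower after knockdown in wild type (median 0.09), of which the number higher is near the 30.2% of all genes. After knockdown in the knockout 4 were lower (median -0.04), near the 21.6% of all genes. LRPPRC, which keeps mitochondrial mRNAs stable, rose in wild type (0.49 ± 0.06, adjusted p = 6.84e-13, edgeR), as did FASTK (0.46 ± 0.06, adjusted p = 1.45e-11, edgeR), whose mitochondrial form is needed for the MT-ND6 mRNA. PNPT1, an RNA-degrading enzyme of mitochondria, fell there by 0.86 and was lower in CD33KO_shCTRL than in WT_shCTRL (-0.68 ± 0.09, adjusted p = 1.44e-10, edgeR). Its interaction was 0.80 ± 0.14, adjusted p = 1.9e-06 (edgeR). SLIRP, the partner of LRPPRC, fell by 0.39 with the knockdown in the knockout and was lower in CD33KO_shPTPN6 than in WT_shPTPN6 (-0.73 ± 0.06, adjusted p = 1.45e-20, edgeR). HSD17B10, a subunit of the enzyme that cuts tRNA 5′ ends, fell by 0.48 with the knockdown in the knockout.

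Mitochondrial ribosomal proteins numbered 36 higher and 13 lower of 74 after knockdown in wild type (median 0.13), against 30.2% and 30.4% of all genes. They numbered 10 higher and 19 lower in the knockout, against 20.5% and 21.6%, where the median had the opposite sign to the counts (0.06). In CD33KO_shPTPN6 against WT_shPTPN6 9 were higher and 42 lower, against 29% and 27.5% of all genes (median -0.24). Of 23 genes for mitochondrial mass and import, 16 were higher and 3 lower after knockdown in wild type (median 0.31), against the same 30.2% and 30.4%. In the knockout 7 were higher and 5 lower, against 20.5% and 21.6% (median -0.04). The biogenesis regulators PPARGC1B and ESRRA, a coactivator and its nuclear receptor partner, rose by 1.11 and 0.61 with the knockdown in wild type. ESRRA rose in the knockout too (0.59 ± 0.09, adjusted p = 3.52e-09, edgeR), and the interaction of PPARGC1B was -1.16 ± 0.19, adjusted p = 5.34e-07 (edgeR). Of 12 genes for replication and nucleoids, 2 were higher and 2 lower with the knockdown in wild type, and of 13 for the mitochondrial unfolded protein response and mitophagy 8 were higher and 1 lower, against 30.2% and 30.4% of all genes. Of 9 tested biogenesis genes, 4 were higher and 0 lower with the knockdown in wild type, against 30.2% and 30.4% of all genes, but their median was -0.01. With the knockdown in the knockout 4 were higher and 1 lower, against 20.5% and 21.6%, and the median was 0.24.

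Nuclear copies of mitochondrial genes can take reads from them, and the reverse. The table holds 417 annotated copies, of which 208 had a count and 18 averaged at least 1 CPM. Together they held 38122 counts, 0.662% as many as the mitochondrial genes. MTATP6P1 is 98.53% identical to MT-ATP6 over 681 aligned bases and averaged 59.2 CPM in CD33KO_shPTPN6, 51.9 in CD33KO_shCTRL, 88.7 in WT_shPTPN6 and 48.7 in WT_shCTRL. MTND2P28, 98.37% identical to MT-ND2, averaged 104.7 CPM in CD33KO_shPTPN6, 110.1 in CD33KO_shCTRL, 184 in WT_shPTPN6 and 128 in WT_shCTRL. MTRNR2L12, 95.04% identical to MT-RNR2, averaged 105 CPM in CD33KO_shPTPN6, 130.5 in CD33KO_shCTRL, 101 in WT_shPTPN6 and 117 in WT_shCTRL. Of 15 tested copies 9 were higher after knockdown in wild type, against 30.2% of all genes, with a median of 0.45, and 6 were lower in CD33KO_shPTPN6 than in WT_shPTPN6, against 27.5% of all genes (median -0.19). MTRNR2L12 did not follow MT-RNR2 in wild type, where MT-RNR2 averaged 24994 CPM in WT_shPTPN6 and 21274 in WT_shCTRL. How the authors' counting treated reads that map to both is not given in the sources used here. The part of each copy's counts that came from the mitochondrial gene it resembles is therefore not known.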

How the data were processed

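Each value is the raw number of reads (counts) assigned to a gene in a library, as deposited by the authors with no normalization. Input was 100 ng of RNA for a 3′ mRNA kit, per the labels' protocols. Tools named in the submitters' processing notes, with no roles, are STAR 2.7.3a, featureCounts of Subread 2.0.0, DESeq2 1.26.0, bcl2fastq and R 3.6.1, with hg38. Strand setting, annotation release, treatment of reads with several matches and of duplicates are not given in the sources used here.

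Groups came from genotype and vector in the labels, and 60596 of 60617 gene identifiers (99.97%) matched a symbol. The low-count filter filterByExpr (edgeR 4.0.16, R 4.3.3) kept 13098 genes. After TMM scaling, 1 model with 4 group means over the 23 libraries gave 6 contrasts, each with edgeR's quasi-likelihood test and Benjamini-Hochberg adjustment over all genes, called under 0.05. The SE of a log2 fold change is approximate, its size over the square root of F. The scripts were tested on simulated data. Alternatives were DESeq2 1.42.0, other scalings, no filter, the compared groups alone, a replicate block and leaving out each library. Named genes are all mitochondrial genes, CD33, PTPN6, nuclear copies averaging at least 1 CPM (the 3 most abundant are named) and, per list, members among the 3 with the smallest adjusted p in a comparison. Members, lists and tests were chosen with earlier results of these data known. Sequences and positions come from GENCODE release 29 (GRCh38), which may differ from the authors' annotation.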

Additional observations from a re-analysis of the deposited data

Results flagged for a closer look

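In groups of 5 or 6 libraries, the gap test for a library far from the rest marked 4 of 136 groups, and chance marks about 1 in 20. CD33KO_shCTRL replicate 2 had 647 CPM of MT-TF, against 511 to 549.7 CPM in the rest of its group, and 27.5 CPM of MT-TY, against 15.2 to 18.4 CPM. WT_shPTPN6 replicate 5 had 1754 CPM of MT-TF, against 1155 to 1329 CPM. Light-strand genes took 0.137% of the mitochondrial counts in WT_shCTRL replicate 6.

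The effect of the knockdown in CD33KO minus that in WT passed the edgeR threshold for 19 genes. In log2 units it was -0.43 for MT-ND1, -0.62 for MT-ND2, -0.40 for MT-ND3, -0.61 for MT-ND4, -0.83 for MT-ND4L, -0.95 for MT-ND5 and -1.04 for MT-ND6 in complex I. It was -0.68 for MT-CYB, -0.66 for MT-CO1, -0.35 for MT-CO2, -0.67 for MT-CO3, -0.63 for MT-ATP6 and -0.83 for MT-ATP8. For rRNAs it was -0.56 (MT-RNR1) and -0.25 (MT-RNR2), and for tRNAs -0.58 (MT-TF), -0.84 (MT-TM), -1.25 (MT-TS2) and 0.40 (MT-TL1).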

How the results depend on the processing

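Of 102 called log2 fold changes none reversed under any alternative. The calls lost numbered 5 with DESeq2, 2 with median-of-ratios scaling, 2 with TMM without mitochondrial genes, 8 without the filter, 17 with raw totals, 1 of 81 with only the compared groups, and 7 with a replicate block. Leaving out single libraries ended 17 of them at least once. For these alternatives the share called over all genes was not taken. In CD33KO_shPTPN6 against WT_shCTRL, raw totals gave 8 genes higher and 6 lower. In CD33KO_shPTPN6 against CD33KO_shCTRL, raw totals and the replicate block gave 5 higher each. The number lower there was 6 with raw totals, 4 with the compared groups alone, and 1 each with median-of-ratios scaling, TMM without mitochondrial genes, DESeq2, no filter and the block. In CD33KO_shPTPN6 against WT_shPTPN6 the number higher was 0 with raw totals and without the filter, and 1 with DESeq2 and the block. The interaction had 0 higher without the filter and with the block. Raw totals moved the median of all genes by at most 0.1 apart from -0.14 in CD33KO_shPTPN6 against WT_shCTRL. Without single libraries the numbers higher and lower ran from 7 to 11 and 2 to 4 for CD33KO_shCTRL against WT_shCTRL, 24 to 26 and 0 for WT_shPTPN6 against WT_shCTRL, and 11 to 15 and 1 to 3 for CD33KO_shPTPN6 against WT_shCTRL. They ran from 5 to 9 and 1 to 4 for CD33KO_shPTPN6 against CD33KO_shCTRL, 1 to 3 and 17 for CD33KO_shPTPN6 against WT_shPTPN6, and 0 to 1 and 18 for the interaction. Relative to the mitochondrial total they ran, with the comparisons in that order, from 4 to 6 and 8 to 10, from 10 to 12 and at 4, from 8 to 9 and 6 to 9, from 6 to 8 and 1 to 4, from 4 to 8 and 11 to 13, and from 3 to 4 and 6 to 8. With the coding genes as the total, 8 were higher and 3 lower in CD33KO_shCTRL against WT_shCTRL, 7 and 8 in WT_shPTPN6 against WT_shCTRL, and 11 and 2 in CD33KO_shPTPN6 against WT_shPTPN6, and 4 were lower in the interaction. Values that reversed were 0.0185 for MT-CYB and 0.0335 for MT-CO3 in CD33KO_shCTRL against WT_shCTRL. In CD33KO_shPTPN6 against WT_shPTPN6 they were 0.0494 for MT-ND2, 0.102 for MT-CO1, 0.0105 for MT-ND3, 0.00982 for MT-ND1, 0.0404 for MT-ND4, 0.0399 for MT-ATP6 and 0.0186 for MT-ND4L. With that total a fall in the coding sum is removed by construction. The block gave 1 smaller share in CD33KO_shPTPN6 against CD33KO_shCTRL. Without rRNA the mitochondrial share was 3.70% in CD33KO_shPTPN6, 3.803% in CD33KO_shCTRL, 5.64% in WT_shPTPN6 and 3.86% in WT_shCTRL. Same-numbered libraries did not deviate together (33 pairs, correlation from -0.0493 to 0.0324, 10 of 66 best with their own number), so the numbers were not taken to pair them. The interaction needs all 4 groups and was not refitted with fewer. Causes of these shifts were not tested. Depth limits the low tRNAs and MT-ND6, which had 64 counts in its lowest library.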
